A study of Caenorhabditis elegans with 12 samples.

Results

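The mRNAs of 10 genes around 1 signalling pathway were followed through immunoprecipitations of 3 Y-box proteins in Caenorhabditis elegans. They are sos-1, let-60, gap-1, lin-45, ksr-1, ksr-2, mek-2, mpk-1 and lip-1, which encode core parts and regulators of the Ras and extracellular signal-regulated kinase (ERK) cascade, together with gla-3, whose protein binds the ERK homologue MPK-1. These 10 genes were chosen out of the 20182 genes of the count table, and all 10 passed the filter on low counts. They were selected with measured values of these libraries in view, and which values chose which gene is not recorded. The first 9 share a role in the pathway. gla-3, whose enrichment with FLAG-tagged CEY-1 was among the largest in an earlier pass over these libraries, is taken to have been chosen on that value, so its values against the control are a description without a test. Counts are given over the 9 pathway genes, and since these too may have been chosen on their values, their p-values set a difference against the spread between libraries and are no independent support for it.

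In the Ras and ERK cascade, a guanine nucleotide exchange factor loads the small GTPase Ras with GTP, a GTPase-activating protein switches it off, and active Ras recruits the kinase Raf. Raf, MEK and ERK then phosphorylate one another in series on KSR scaffolds, and a dual-specificity phosphatase removes the phosphates from ERK. In C. elegans the cascade is known for vulval induction in the soma and, in the germline, for pachytene progression, oocyte growth and maturation, and the control of germ cell death.

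RNA recovered on beads carrying FLAG or MYC antibody was sequenced from whole young adults fed on OP50 bacteria. CEY-1, CEY-2 and CEY-4 are cold-shock domain proteins that bind mRNA in the cytoplasm. The MYC immunoprecipitation (IP) of the same strain, in which no protein with a MYC tag is named, is the control for each FLAG IP, so that the comparison asks which mRNAs came down with the tagged protein beyond background. There were 12 libraries, 2 for each of the 6 combinations of strain and antibody.

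The CEY1 strain carried rrrSi300, in which the cey-1 promoter drives FLAG(1x)::cey-1. The CEY2 strain carried rrrSi233, in which the cey-2 promoter drives FLAG(1x)::cey-2, and the CEY4 strain carried rrrSi307, in which FLAG(1x)::cey-4 is driven not by its own promoter but by that of dpy-30. All 3 transgenes sit on chromosome I, keep the 3′-UTR of their own cey gene, and share an operon linker, PEST:GFPH2B, the tbb-2 3′-UTR and unc-119(+). The labels do not say whether the endogenous cey genes were intact or whether replicates came from separate cultures, so p-values speak only of how far these libraries spread, which may be technical.

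FLAG libraries held 22915137 to 33529549 counts and MYC libraries 3353523 to 12802412. Values are CPM (counts scaled to a common library size) after TMM scaling, edgeR's trimmed mean of log ratios, with factors of 0.548 to 0.640 in FLAG and 1.51 to 2.13 in MYC libraries. This scaling matters for the sign of small changes: scaling by total counts moved the median log2 fold change of all tested genes by −1.49 in CEY1, −1.71 in CEY2 and −1.41 in CEY4, so a log2 fold change is relative to the other mRNAs of the same IP. The tagged proteins' own transcripts were higher with FLAG, by a log2 fold change of 3.34 ± 0.06 (SE) for cey-1 in CEY1, 3.02 ± 0.06 for cey-2 in CEY2 and 3.14 ± 0.05 for cey-4 in CEY4. In whole worms, fewer cells of a type and less RNA per cell cannot be told apart.

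Of the 9 pathway mRNAs, 8 were higher and 1 was lower in the FLAG than in the MYC IP of each strain at an adjusted p under 0.05 (edgeR quasi-likelihood test, Benjamini-Hochberg adjustment over 15194 genes). mek-2 was the lower one with CEY-1 and CEY-4, and gap-1 with CEY-2. For comparison, 32.3% of all tested genes were higher and 34.4% lower in CEY1, 34.9% and 34.1% in CEY2, and 31.5% and 37% in CEY4. The median log2 fold change of the 9 was 1.12 in CEY1, 2.36 in CEY2 and 0.97 in CEY4, against −0.26, −0.41 and −0.35 over all tested genes. In each strain every FLAG library lay above every MYC library for 8 of the 9 genes and below for 1, where 37.3% and 43.9% of all tested genes did in CEY1, 38% and 45.3% in CEY2, and 35.6% and 48.1% in CEY4. With total-count scaling the 9 genes split into 3 higher and 6 lower in CEY1, 5 and 4 in CEY2, and 4 and 5 in CEY4, where 10.8% of all tested genes were higher and 71.4% lower in CEY1, 13.2% and 71.7% in CEY2, and 9.25% and 79.7% in CEY4. With upper-quartile scaling the calls of let-60 and gap-1 were lost in CEY1 and CEY4, and those of mek-2 and ksr-1 in CEY2. The shares of all tested genes were then 26.0% higher and 44.6% lower in CEY1, 24.6% and 55.3% in CEY2, and 25.6% and 47.8% in CEY4.

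**Figure D1:**
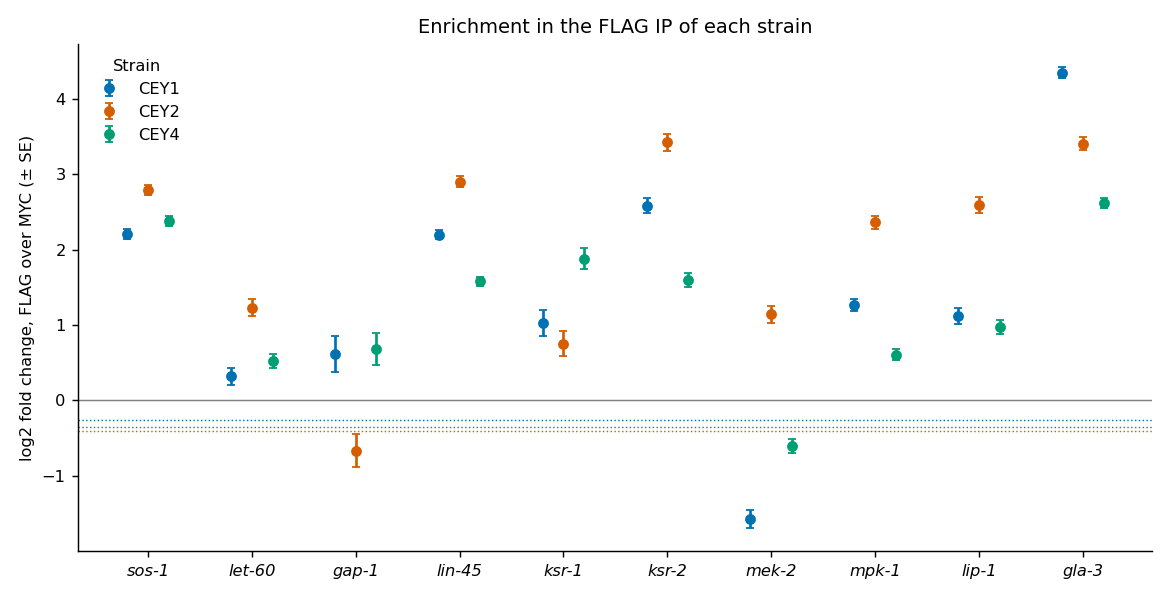
Log2 fold change of FLAG over MYC (y axis) for each of the 10 mRNAs in CEY1, CEY2 and CEY4, from TMM-scaled counts of 2 FLAG and 2 MYC libraries a strain, with bars of 1 SE. mek-2 lies below 0 in CEY1 and CEY4 and gap-1 in CEY2, while gla-3 lies above the others in CEY1; with total-count scaling let-60 falls below 0 in every strain, as do mpk-1, gap-1 and lip-1 in CEY1 and CEY4, ksr-1 in CEY1 and CEY2, and mek-2 in CEY2.

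sos-1 encodes the exchange factor that activates Ras, and its mRNA was among the most enriched of the 9 with each protein. Its level ran from 543.0 to 660.3 CPM over the 6 FLAG libraries and from 89.9 to 130.2 CPM over the 6 MYC libraries. The FLAG libraries of every strain were thus above all MYC libraries. The log2 fold change was 2.21 ± 0.07 in CEY1, 2.79 ± 0.07 in CEY2 and 2.38 ± 0.06 in CEY4, and the largest adjusted p of the 3 was 2.44e-29 (edgeR). Its 3 enrichments spanned 0.58, the smallest span among the 10, where the median span over all tested genes was 1.41.

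let-60 encodes the Ras protein itself, and its mRNA stood apart from its activator's by small enrichments. In CEY1 the FLAG libraries held 33.2 and 28.7 CPM and the MYC libraries 23.9 and 25.7 CPM. In CEY2 the FLAG libraries held 52.3 and 55.6 CPM against 23.8 and 22.1 CPM with MYC. In CEY4 they held 33.7 and 32.7 CPM against 23.5 and 22.7 CPM. With TMM scaling the MYC level was alike in the 3 strains, and the CEY2 FLAG libraries were the highest. Scaled by total counts alone, the MYC libraries held 50.2 and 47.1 CPM in CEY2, 36.3 and 40.7 CPM in CEY1, and 35.4 and 34.7 CPM in CEY4. Enrichment was weakest in CEY1: the log2 fold change was 0.32 ± 0.11 in CEY1 (adjusted p = 0.0107, edgeR), 1.23 ± 0.11 in CEY2 (adjusted p = 1.83e-13) and 0.52 ± 0.10 in CEY4 (adjusted p = 1.12e-05). It turned to −1.17, −0.50 and −0.89 with total-count scaling, and to −0.08 in CEY1 with upper-quartile scaling, which gave 0.20 in CEY4 (adjusted p = 0.0688). The CEY1 call was also lost without the first FLAG library (0.21, adjusted p = 0.193) or the first MYC library (0.28, adjusted p = 0.0557) of that strain, and in a fit of its 4 libraries alone (0.20, adjusted p = 0.129).

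gap-1 encodes a Ras GTPase-activating protein that inactivates LET-60, and it had the fewest reads of the 10, with 24 to 103 counts a library. In CEY1 the FLAG libraries held 6.58 and 5.01 CPM and the MYC libraries 3.35 and 4.17 CPM. In CEY2 the order was turned, with 4.66 and 4.24 CPM in FLAG and 7.51 and 6.58 CPM in MYC libraries. In CEY4 the FLAG libraries held 5.21 and 5.63 CPM and the MYC libraries 3.58 and 3.15 CPM. The highest values of gap-1 anywhere were therefore those of the CEY2 MYC libraries, while its FLAG values overlapped between CEY1 and CEY4 and were lowest in CEY2 with TMM scaling. Its FLAG differences were not called, at 0.39 for CEY1 against CEY2 (adjusted p = 0.0907, edgeR) and −0.29 for CEY2 against CEY4 (adjusted p = 0.232). The log2 fold change was 0.61 ± 0.24 in CEY1 (adjusted p = 0.0235, edgeR), −0.67 ± 0.22 in CEY2 (adjusted p = 0.00762) and 0.68 ± 0.21 in CEY4 (adjusted p = 0.00426), and total-count scaling turned the CEY1 and CEY4 values to −0.88 and −0.73. With upper-quartile scaling they were 0.21 (adjusted p = 0.444) and 0.36 (adjusted p = 0.122). At this depth the calls were easily lost: the CEY1 value was 0.39 (adjusted p = 0.265) without the first FLAG and 0.49 (adjusted p = 0.131) without the first MYC library and 0.49 (adjusted p = 0.0844) in a fit of the 4 CEY1 libraries alone, and the CEY2 value −0.58 (adjusted p = 0.0642) without the second FLAG and −0.54 (adjusted p = 0.0979) without the first MYC library.

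lin-45 encodes the Raf kinase that Ras activates, and its mRNA was enriched with every protein. It was at 565.7 and 564.5 CPM in the FLAG and 122.8 and 123.5 CPM in the MYC libraries of CEY1. In CEY2 it was at 405.1 and 432.6 CPM with FLAG and 60.7 and 51.5 CPM with MYC, and in CEY4 at 394.8 and 394.9 CPM against 131.8 and 132.9 CPM. Its highest FLAG values came from CEY1, whereas its highest fold change came from CEY2, whose MYC libraries held the least lin-45. Its log2 fold change was 2.20 ± 0.06 in CEY1, 2.90 ± 0.07 in CEY2 and 1.58 ± 0.06 in CEY4, and the largest adjusted p of the 3 was 1.22e-25 (edgeR).

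The KSR proteins are scaffolds that hold Raf, MEK and ERK together. KSR-2 is known for its role in the germline and KSR-1 for vulval induction, and the enrichments of their mRNAs were ordered differently over the strains. ksr-2 was at 162.8 and 161.1 CPM in the FLAG libraries of CEY1, 195.2 and 185.4 CPM in those of CEY2, and 83.9 and 82.1 CPM in those of CEY4. Its MYC libraries ran from 16.2 to 32.8 CPM over the 3 strains, below every FLAG library. For ksr-2 the log2 fold change was 2.58 ± 0.10 in CEY1, 3.42 ± 0.11 in CEY2 and 1.60 ± 0.09 in CEY4 (largest adjusted p = 1.36e-19, edgeR).

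ksr-1, with 45 to 468 counts a library, had its largest enrichment with CEY-4 and its smallest with CEY-2. It was at 26.6 and 28.0 CPM in the CEY4 FLAG libraries, and at 12.8 to 16.8 CPM in the 4 FLAG libraries of CEY1 and CEY2, while its MYC libraries ran from 6.28 to 10.6 CPM. Its log2 fold change was 1.03 ± 0.17 in CEY1 (adjusted p = 1.64e-06, edgeR), 0.75 ± 0.16 in CEY2 (adjusted p = 9.35e-05) and 1.88 ± 0.14 in CEY4 (adjusted p = 9.35e-16). Total-count scaling turned it to −0.47 in CEY1 and −0.97 in CEY2, and upper-quartile scaling to −0.19 in CEY2.

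mek-2 encodes the MEK kinase between Raf and ERK, and it changed most between the strains. In CEY1 the FLAG libraries held 11.5 and 12.2 CPM and the MYC libraries 35.9 and 34.6 CPM. In CEY2 the FLAG libraries held 45.3 and 46.8 CPM and the MYC libraries 21.9 and 19.9 CPM. In CEY4 they held 26.5 and 25.2 CPM against 40.0 and 38.4 CPM. FLAG libraries thus lay below MYC libraries with CEY-1 and CEY-4 and above them with CEY-2. The log2 fold change was −1.57 ± 0.12 in CEY1 (adjusted p = 1.35e-15, edgeR), 1.14 ± 0.11 in CEY2 (adjusted p = 2.00e-12) and −0.60 ± 0.09 in CEY4 (adjusted p = 3.46e-07). With total-count scaling the CEY2 value turned to −0.59 and mek-2 was lower with all 3 proteins, and with upper-quartile scaling it was 0.20 (adjusted p = 0.101). Among all tested genes the mek-2 value stood at percentile 23.9 in CEY1, 72.7 in CEY2 and 43.7 in CEY4.

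mpk-1 encodes the ERK homologue at the end of the cascade. Its FLAG libraries held 148.3 and 144.7 CPM in CEY1, 210.5 and 197.7 CPM in CEY2, and 104.1 and 98.9 CPM in CEY4. Its MYC libraries held 61.6 and 60.2 CPM in CEY1, 45.3 and 34.0 CPM in CEY2, and 64.6 and 68.7 CPM in CEY4. With TMM scaling CEY2 had both the highest FLAG and the lowest MYC values. The log2 difference between CEY1 and CEY2 MYC libraries was 0.61. It was 0.17 (adjusted p = 0.163, edgeR) with total-count and 0.20 (adjusted p = 0.0836) with upper-quartile scaling. The log2 fold change was 1.27 ± 0.08 in CEY1 (adjusted p = 1.20e-17, edgeR), 2.36 ± 0.09 in CEY2 (adjusted p = 4.02e-26) and 0.61 ± 0.07 in CEY4 (adjusted p = 2.21e-09), and it turned to −0.22 in CEY1 and −0.81 in CEY4 with total-count scaling.

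lip-1 encodes the dual-specificity phosphatase that inactivates MPK-1 in the germline. It was at 68.3 and 73.5 CPM in the FLAG libraries of CEY1, 126.7 and 127.6 CPM in those of CEY2, and 75.0 and 75.9 CPM in those of CEY4, while its 6 MYC libraries ran from 19.3 to 43.6 CPM. As for its substrate's mRNA, the CEY2 FLAG libraries were the highest and the CEY2 MYC libraries the lowest, with TMM scaling. The log2 difference of 0.63 between CEY1 and CEY2 MYC libraries was not called with the other scalings. It was 0.18 with total-count, 0.22 with upper-quartile and 0.28 with RLE scaling, and 0.29 with DESeq2. On the log2 scale the fold change was 1.12 ± 0.10 in CEY1, 2.59 ± 0.11 in CEY2 and 0.97 ± 0.09 in CEY4 (largest adjusted p = 1.43e-12, edgeR), and it turned to −0.37 in CEY1 and −0.44 in CEY4 with total-count scaling.

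gla-3 encodes a CCCH zinc-finger protein of the TIS11 type that binds MPK-1 and is known for its role in germ cell death. Its FLAG libraries held 1191 and 1210 CPM in CEY1, 369 and 390 CPM in CEY2, and 392 and 394 CPM in CEY4. Its MYC libraries held 62.3 and 56.6 CPM in CEY1, 34.1 and 37.7 CPM in CEY2, and 57.7 and 70.4 CPM in CEY4. The CEY1 FLAG libraries were about 3.17 times those of CEY2 and 3.06 times those of CEY4, and no FLAG library overlapped a MYC library. These values gave a log2 fold change of 4.34 ± 0.08 in CEY1, 3.40 ± 0.08 in CEY2 and 2.62 ± 0.07 in CEY4. The fold changes are shown as a description because gla-3 is taken to have been selected on the CEY1 value. Among the 15194 tested genes these values ranked 27, 130 and 213 from the top. With total-count scaling they were 2.85, 1.67 and 1.20.

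**Figure D2:**
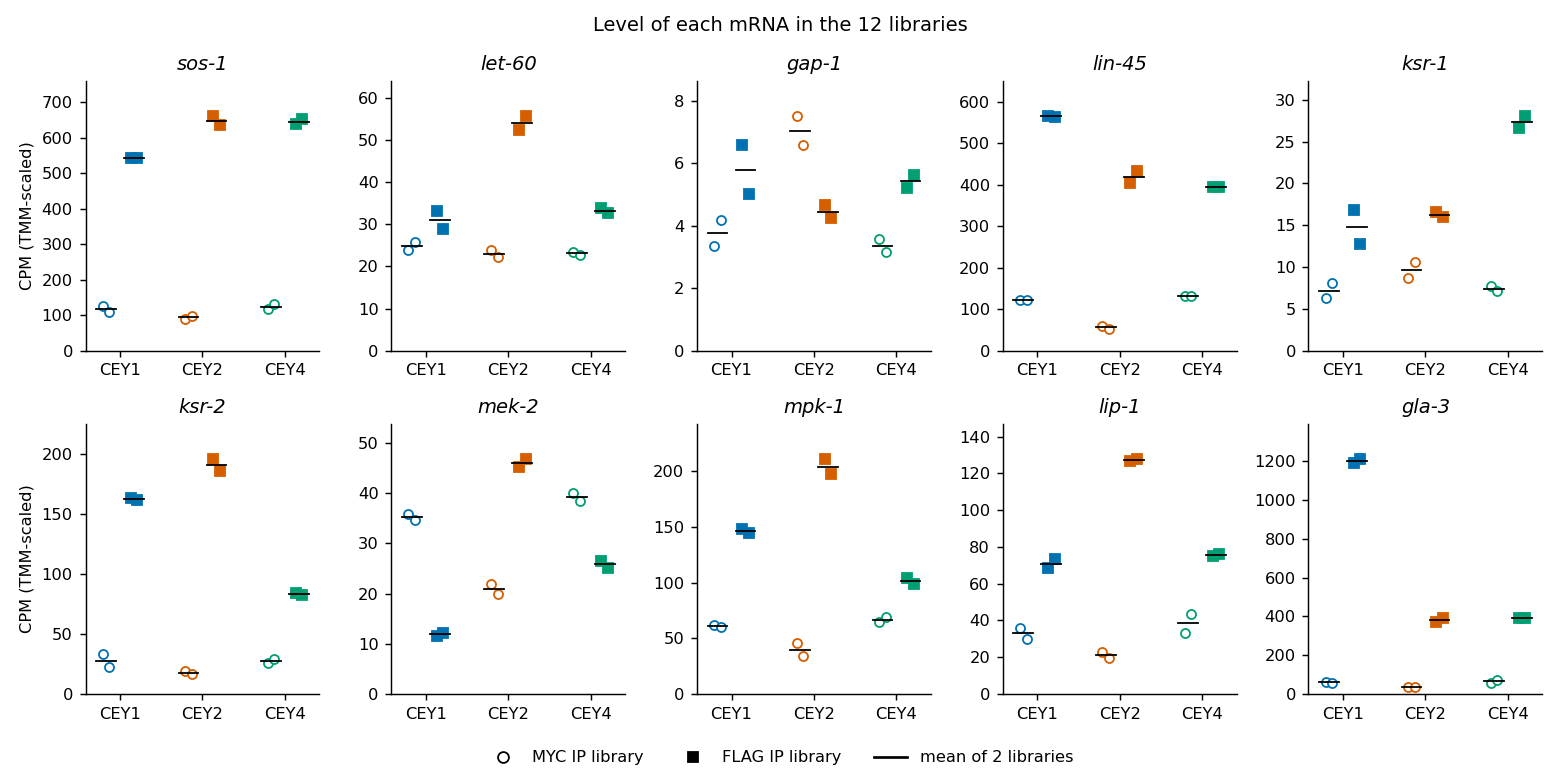
TMM-scaled CPM (y axis, from 0, its own range in each panel) of the 10 mRNAs in every MYC and FLAG IP library of CEY1, CEY2 and CEY4, each library a point and each line the mean of 2 libraries. The FLAG points of gla-3 lie between 369 and 1210 CPM and its MYC points between 34.1 and 70.4 CPM, while the mek-2 FLAG points lie below the MYC points in CEY1 and CEY4.

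**Figure D3:**
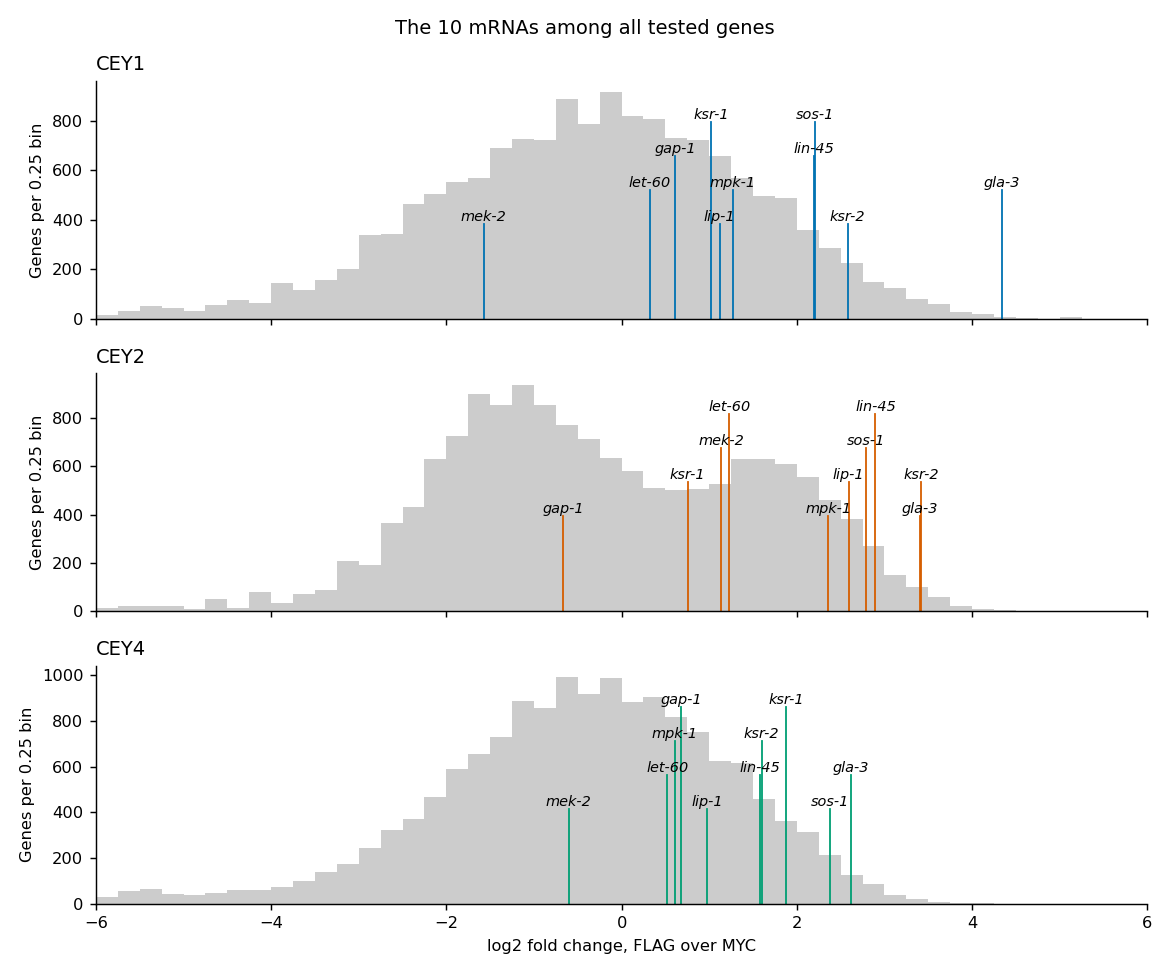
Number of genes (y axis) in bins of the log2 fold change of FLAG over MYC (x axis) over the 15194 tested genes in each strain, with vertical marks at the 10 mRNAs. gla-3, taken to have been chosen for its CEY1 value, lies at the right edge in each strain. mek-2 stands at percentile 23.9, 72.7 and 43.7 in CEY1, CEY2 and CEY4. Total-count scaling shifts every value of a strain to the left by about the same amount.

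Some of the 10 genes overlap another gene in the RefSeq annotation, and whether reads were counted by strand is not stated, so shared reads cannot be told apart. gla-3 overlaps dhs-3, which was lower with FLAG in all 3 strains (log2 fold change −2.32, −1.36 and −1.39) at 3.14 to 15.9 CPM. mek-2 overlaps the collagen gene col-48, which was also lower, by −1.54 in CEY1, −2.15 in CEY2 and −2.16 in CEY4, and whose mean was 24.7 CPM in the CEY1, 40.5 CPM in the CEY2 and 8.61 CPM in the CEY4 MYC libraries. These means are of the same order as those of mek-2, and the part of col-48 reads in the mek-2 counts was not tested. ksr-1 overlaps fis-2, which ran from 1.97 to 6.55 CPM, and sos-1 overlaps T28F12.1, at 0.558 to 1.44 CPM.

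The 3 strains were compared through the difference of their log2 enrichments. They differ both in the tagged protein and in the promoter of its transgene, and these cannot be told apart. Enrichment with CEY-2 was above that with CEY-1 for 7 of the 9 pathway mRNAs, below it for gap-1, and not called for ksr-1, where 31.4% of all genes were higher with CEY-2 and 18.4% higher with CEY-1. Relative to CEY-4, 7 of the 9 were higher with CEY-2 and 2, ksr-1 and gap-1, were lower, against 32.3% and 14.7% of all genes. Between CEY-1 and CEY-4, 3 were higher with CEY-1 and 2 lower, against 18.1% and 18.6%, and 4 were not called. The median difference of the 9 was −0.84 for CEY1 minus CEY2, −0.07 for CEY1 minus CEY4 and 1.32 for CEY2 minus CEY4, beside −0.23, −0.00 and 0.29 over all genes. With upper-quartile scaling 2 of the 9 were higher with CEY-1 than with CEY-2 and 4 lower, and the shares of all genes turned round, to 28.8% and 21.5%. For CEY2 minus CEY4 that scaling gave 5 higher and 3 lower, and also turned the shares of all genes, to 18.2% higher and 28.4% lower. The 3 differences share libraries, since each strain enters 2 of them.

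mek-2 had the largest difference of the 10 between CEY1 and CEY2: its log2 enrichment with CEY-1 was below that with CEY-2 by a difference of −2.71 ± 0.16 (adjusted p = 2.25e-18, edgeR), and that with CEY-2 was 1.74 ± 0.14 above that with CEY-4 (adjusted p = 9.96e-14). Its enrichment with CEY-1 was also below that with CEY-4, by a difference of −0.97 ± 0.15 (adjusted p = 9.20e-07). mpk-1 and its phosphatase lip-1 were ordered alike, with differences between CEY2 and CEY4 of 1.75 ± 0.12 and 1.62 ± 0.15 and between CEY1 and CEY2 of −1.09 ± 0.12 and −1.47 ± 0.16. Between CEY1 and CEY4, mpk-1 differed by 0.66 ± 0.11 (adjusted p = 4.01e-06), while the lip-1 difference of 0.14 ± 0.14 was not called (adjusted p = 0.473). Leaving out the first CEY4 MYC library made that lip-1 difference 0.33 (adjusted p = 0.0467), and leaving out the second turned it to −0.07.

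For the upstream kinase and the germline scaffold the order was CEY2, CEY1, CEY4. lin-45 differed by −0.70 ± 0.10 between CEY1 and CEY2, 0.62 ± 0.09 between CEY1 and CEY4 and 1.32 ± 0.09 between CEY2 and CEY4, and ksr-2 by −0.84 ± 0.16, 0.98 ± 0.14 and 1.82 ± 0.15. The largest adjusted p among these 6 was 1.65e-05 (edgeR), but with upper-quartile scaling the CEY1 minus CEY2 differences shrank to −0.15 (adjusted p = 0.171) for lin-45 and −0.29 (adjusted p = 0.116) for ksr-2. let-60 differed by −0.91 ± 0.16 between CEY1 and CEY2 (adjusted p = 3.19e-06) and by 0.71 ± 0.15 between CEY2 and CEY4 (adjusted p = 7.17e-05), the latter being 0.09 (adjusted p = 0.667) with upper-quartile scaling and 0.38 (adjusted p = 0.0722) with DESeq2. The let-60 difference of −0.20 ± 0.15 between CEY1 and CEY4 was not called (adjusted p = 0.317).

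ksr-1 and gap-1 were the genes whose enrichment was lower with CEY-2 than with CEY-4. ksr-1 differed by −1.12 ± 0.22 between CEY2 and CEY4 (adjusted p = 3.29e-05, edgeR), by −0.85 ± 0.23 between CEY1 and CEY4 (adjusted p = 0.00236), and by 0.27 ± 0.24 between CEY1 and CEY2 (adjusted p = 0.389). With RLE scaling the last was 0.61 (adjusted p = 0.0353) and with upper-quartile scaling 0.82 (adjusted p = 0.00479). Without the second CEY1 MYC library the ksr-1 difference between CEY1 and CEY4 was −0.64 (adjusted p = 0.0951). gap-1 differed by −1.35 ± 0.30 between CEY2 and CEY4 (adjusted p = 0.000226) and by 1.28 ± 0.32 between CEY1 and CEY2 (adjusted p = 0.000918), and its CEY1 minus CEY4 difference was −0.07 ± 0.32 (adjusted p = 0.902), changing sign when 1 of 3 libraries was left out.

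sos-1, with the smallest span over the strains, differed by −0.58 ± 0.09 between CEY1 and CEY2 (adjusted p = 1.17e-06, edgeR), 0.41 ± 0.09 between CEY2 and CEY4 (adjusted p = 0.000164) and −0.17 ± 0.09 between CEY1 and CEY4 (adjusted p = 0.148). With upper-quartile scaling the first shrank to −0.03 (adjusted p = 0.833) and the second turned to −0.21, while the second was 0.10 (adjusted p = 0.389) with total-count and 0.08 (adjusted p = 0.536) with RLE scaling. The third was called with total-count scaling, at −0.24 (adjusted p = 0.0184), with upper-quartile scaling, at −0.24 (adjusted p = 0.0195), without the second CEY1 MYC library, at −0.27 (adjusted p = 0.00856), and without the second CEY4 MYC library, at −0.24 (adjusted p = 0.0382). Leaving out each library in turn moved it between −0.27 and −0.09. For gla-3, the difference between CEY2 and CEY4 was 0.79 ± 0.11 (adjusted p = 6.22e-08, edgeR), and 0.17 (adjusted p = 0.215) with upper-quartile scaling. It does not use the CEY1 enrichment, but whether the CEY2 or CEY4 values entered the choice of gla-3 is not recorded. The gla-3 differences of 0.94 between CEY1 and CEY2 and 1.73 between CEY1 and CEY4 are a description only.

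A difference of enrichment can rest on the FLAG or on the MYC libraries, and both moved here. Between the MYC libraries of CEY1 and CEY4 none of the 9 genes was called with edgeR, and none had an unadjusted p under 0.05 except lip-1 (0.0368), while 6.19% of all genes were higher in CEY1 and 8.35% lower. The CEY2 MYC libraries differed from both: 6 of the 9 were higher in CEY1 than in CEY2 and 1 lower (39.7% and 14.8% of all genes), and 1 was higher and 6 lower in CEY2 than in CEY4 (15.4% and 42.4%). Depending on the scaling, 2 or 3 of the 9 in place of 6 were higher in CEY1 than in CEY2, and 3 in place of 1 were higher in CEY2 than in CEY4, as the median of all genes shifted by up to −0.45 and 0.48. Of all genes, 22.2% to 26.3% were then higher in CEY1 than in CEY2, and 19.5% to 27.6% in CEY2 than in CEY4. lin-45 differed most, with a log2 difference of −1.24 ± 0.07 for CEY2 against CEY4 (adjusted p = 5.37e-18). gap-1, the gene higher in CEY2, came next at 1.06 ± 0.23 (adjusted p = 0.00012), then mek-2 at −0.91 ± 0.11, lip-1 at −0.86 ± 0.12 and mpk-1 at −0.74 ± 0.09. The sos-1 difference of −0.40 ± 0.07 turned to 0.08 with total-count and 0.03 with upper-quartile scaling, and its CEY1 against CEY2 difference of 0.32 ± 0.07 turned to between −0.13 and −0.02 with every other scaling tried.

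Between the FLAG libraries of CEY2 and CEY4, 5 of the 9 were higher in CEY2 and 1 lower, where 27.6% and 27.3% of all genes were. With upper-quartile scaling 3 of the 9 were lower, and 21.6% of all genes were higher and 33.2% lower. ksr-2 (1.20 ± 0.08), mpk-1 (1.01 ± 0.07), mek-2 (0.83 ± 0.09), lip-1 (0.75 ± 0.08) and let-60 (0.70 ± 0.09) were the higher ones and ksr-1 (−0.75 ± 0.12) the lower, with a largest adjusted p of 1.58e-06 (edgeR). lin-45, at 0.09 ± 0.06 (adjusted p = 0.203), gap-1, at −0.29 ± 0.20 (adjusted p = 0.232), and sos-1, at 0.01 ± 0.06 (adjusted p = 0.934), were not called there. Between CEY1 and CEY2, 1 gene, lin-45, was higher with 6 lower (29.9% and 31.2% of all genes), mek-2 the most at −1.96 ± 0.11, and with upper-quartile scaling 2 were higher and 4 lower (33.4% and 27.8% of all genes). Between CEY1 and CEY4, 3 genes were higher and 3 lower (23.6% and 25.4%), from −1.13 ± 0.11 for mek-2 to 0.96 ± 0.08 for ksr-2.

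**Figure D4:**
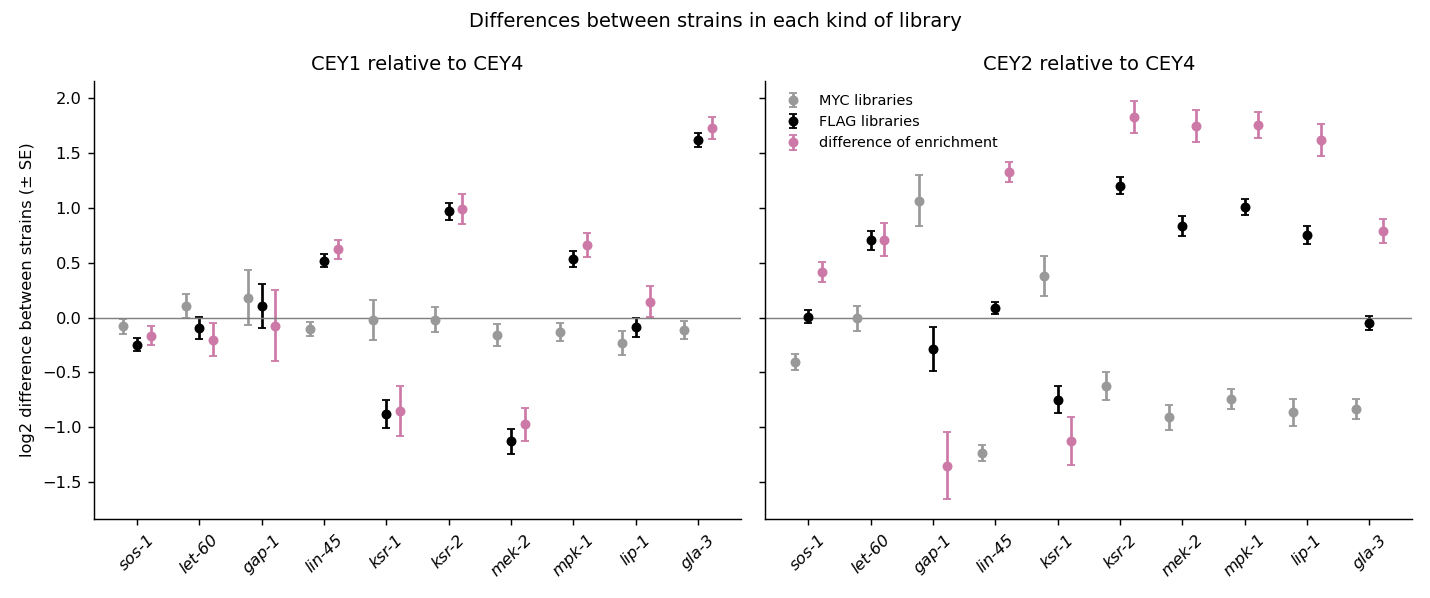
Log2 difference between strains (y axis, bars of 1 SE) of each of the 10 mRNAs in MYC libraries, in FLAG libraries and in the enrichment of FLAG over MYC, with 2 libraries a group. The enrichment difference of lin-45 between CEY2 and CEY4 is 1.32 with −1.24 in MYC and 0.09 in FLAG libraries, whereas that of ksr-2 is 1.82 with 1.20 in FLAG libraries; with upper-quartile scaling the sos-1 difference between CEY2 and CEY4 turns to −0.21.

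Cell type markers moved between the same libraries, but not alike in FLAG and MYC libraries. The summed level of the 8 germline markers ran from 8224 to 8357 CPM in the CEY1, 8655 to 8786 CPM in the CEY2 and 6646 to 6718 CPM in the CEY4 FLAG libraries, and from 2076 to 2264, 1314 to 1366 and 2228 to 2261 CPM in their MYC libraries. The 6 oocyte markers summed to 31855 to 32267 CPM in the CEY2 FLAG libraries, 17476 to 17836 CPM in those of CEY1 and 20795 to 20820 CPM in those of CEY4. In MYC libraries they were lowest in CEY2, at 3161 to 3202 CPM against 4647 to 5129 CPM in CEY1 and 5053 to 5197 CPM in CEY4. The 5 body wall muscle markers were at 2999 to 3026 CPM in the CEY2 FLAG libraries against 10129 to 10301 CPM in CEY1 and 12188 to 12505 CPM in CEY4, and each of the 5 was lowest in CEY2. Their MYC sums were alike, at 3806 to 3970 CPM in CEY1, 3820 to 3830 CPM in CEY2 and 3894 to 3965 CPM in CEY4. The 6 hypodermis and vulva markers summed to 270 to 282 CPM in the CEY2 FLAG libraries against 3617 to 4031 CPM in CEY1 and 625 to 631 CPM in CEY4. That sum was made mostly of col-19, at means of 212 CPM in CEY2, 3687 CPM in CEY1 and 599 CPM in CEY4. Other members of that list went the other way, rol-6 being at 20.5 CPM in CEY2 against 3.13 and 4.39 CPM and dpy-7 at 4.68 CPM against 0.799 and 0.476 CPM. The hypodermis and vulva sums in MYC libraries were 902 to 961 CPM in CEY1, 663 to 698 CPM in CEY2 and 832 to 919 CPM in CEY4. No marker was at 0 in a whole group. In FLAG libraries all 6 oocyte markers were higher in CEY2 than in CEY1 and in CEY4, while the germline markers were mixed between CEY1 and CEY2, with gld-1 at 2281 and 1077 CPM and rec-8 at 1038 and 645 CPM, and 5 of the 8 lower in CEY1 and 2 higher. Of all tested genes, 31.2% were lower and 29.9% higher in CEY1 than in CEY2, and 27.6% were higher in CEY2 than in CEY4. The part of these levels in the differences between strains was not tested.

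Genes with related functions were followed as lists. Of 31 other Ras and ERK pathway genes, 21 were higher and 6 lower with FLAG in CEY1, 20 and 7 in CEY2, and 19 and 5 in CEY4, with median log2 fold changes of 0.90, 0.93 and 0.71. Beside these counts, of all tested genes 32.3% were higher and 34.4% lower in CEY1, 34.9% and 34.1% in CEY2, and 31.5% and 37% in CEY4. ark-1, encoding an Ack-related kinase that dampens LET-23 signalling, was at 3.33 ± 0.08, 3.55 ± 0.08 and 3.03 ± 0.07, and ptp-2, encoding a SHP-type phosphatase, stood at 2.31 ± 0.06, 3.22 ± 0.07 and 1.96 ± 0.06. lin-3, encoding the EGF-like ligand, averaged 259.9 CPM in FLAG and 32.9 CPM in MYC libraries of CEY1, and its log2 fold change was 2.46 in CEY2 and 1.45 in CEY4. let-23, encoding its receptor, was lower in CEY1 (−0.43 ± 0.15) and CEY2 (−0.74 ± 0.19), with −0.15 ± 0.14 in CEY4. As for mek-2, let-92, encoding a catalytic subunit of protein phosphatase 2A, and lin-7, encoding a protein that localizes the receptor, were lower in CEY1 and CEY4 but higher in CEY2, by −1.01, −0.75 and 1.25 for let-92 and −1.28, −0.53 and 1.37 for lin-7. With total-count scaling 8 of the 31 were higher and 20 lower in CEY1, 9 and 20 in CEY2, and 4 and 20 in CEY4. Of all tested genes, 10.8% were then higher and 71.4% lower in CEY1, 13.2% and 71.7% in CEY2, and 9.25% and 79.7% in CEY4. Upper-quartile scaling gave 12 higher and 13 lower in CEY2 (24.6% and 55.3% of all tested genes) and 9 lower in CEY4 (47.8%). The count lower in CEY1 fell without its first MYC library.

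The 22 genes of other MAP kinase cascades, those of p38, JNK and Nemo-like kinases among them, were divided. Of them, 9 were higher and 7 lower in CEY1, 5 and 7 in CEY2, and 11 and 6 in CEY4, with medians of 0.12, −0.20 and 0.20, where 32.3% and 34.4%, 34.9% and 34.1%, and 31.5% and 37% of all tested genes were. The count lower in CEY2 was 12 with RLE scaling (42.3% of all tested genes) and 12 with DESeq2 (37.3%). It was 13 in a fit of that strain alone (43.0%) and 17 with upper-quartile scaling (55.3%). lit-1, encoding the Nemo-like kinase, at 1.98, 1.88 and 1.39, and mom-4, encoding its upstream kinase, at 1.68, 2.37 and 1.47, were higher in each strain. mak-2, at −1.22, −0.88 and −0.88, and sma-5, at −0.63, −0.89 and −0.70, were lower in each. With total-count scaling 2 were higher and 18 lower in CEY1, 1 and 19 in CEY2, and 1 and 18 in CEY4. That scaling made 10.8% of all tested genes higher and 71.4% lower in CEY1, 13.2% and 71.7% in CEY2, and 9.25% and 79.7% in CEY4.

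Among 7 RNA-binding regulators of the pathway and reported germline substrates of MPK-1, 5 were higher and 1 lower in CEY1 and all 7 were higher in CEY2 and CEY4, with medians of 1.49, 2.33 and 1.34, where 32.3%, 34.9% and 31.5% of all tested genes were higher and 34.4%, 34.1% and 37% lower. nos-3, a Nanos homologue gene, stood at 4.20 ± 0.07, 3.35 ± 0.07 and 3.07 ± 0.07, and gld-1, encoding a translational repressor, at 2.83, 2.33 and 1.85. dcr-1, encoding Dicer, was at 1.49, 2.65 and 2.09. fbf-2, encoding a PUF repressor, was the lower one in CEY1, at −0.57 ± 0.17, and was higher in CEY2 and CEY4. With total-count scaling 3 were higher and 3 lower in CEY1 and in CEY4, and 4 higher and 0 lower in CEY2. The shares of all tested genes were then 10.8% and 71.4% in CEY1, 9.25% and 79.7% in CEY4, and 13.2% and 71.7% in CEY2.

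Of 7 tested germ cell death genes, 4 were higher and 1 lower in CEY1, 6 and 0 in CEY2, and 5 and 1 in CEY4, with medians of 0.54, 2.07 and 1.19, where 32.3% and 34.4%, 34.9% and 34.1%, and 31.5% and 37% of all tested genes were. The 1 lower in CEY4 was egl-1, whose call was lost with DESeq2, in a fit of that strain alone, and without its first FLAG or second MYC library. ced-3, encoding the caspase, was at 1.19 ± 0.07, 2.54 ± 0.07 and 1.36 ± 0.06, and ced-9, the BCL2 homologue gene, at −0.36 ± 0.07, 1.54 and 0.00. Of 13 CCCH zinc-finger genes related to gla-3, 7 were higher and 3 lower in CEY1, 9 and 2 in CEY2, and 5 and 4 in CEY4, with medians of 0.58, 2.18 and 0.01, where the shares of all tested genes were the same as for the cell death genes. The count lower in CEY4 was 2 with DESeq2, where 28.7% of all tested genes were lower, and it also fell without the first CEY4 FLAG library. mex-5 was at 3.75 ± 0.07, 3.53 ± 0.07 and 2.18 ± 0.06 and mex-1 at 3.64, 3.02 and 2.07, whereas pos-1 was lower in CEY1 (−1.03 ± 0.06) and CEY4 (−0.69 ± 0.06). With total-count scaling the cell death genes split into 1 higher and 5 lower in CEY1, 5 and 1 in CEY2, and 0 and 4 in CEY4, and the CCCH genes into 4 and 7, 7 and 3, and 3 and 9. Beside both lists, 10.8% of all tested genes were then higher and 71.4% lower in CEY1, 13.2% and 71.7% in CEY2, and 9.25% and 79.7% in CEY4.

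**Figure D5:**
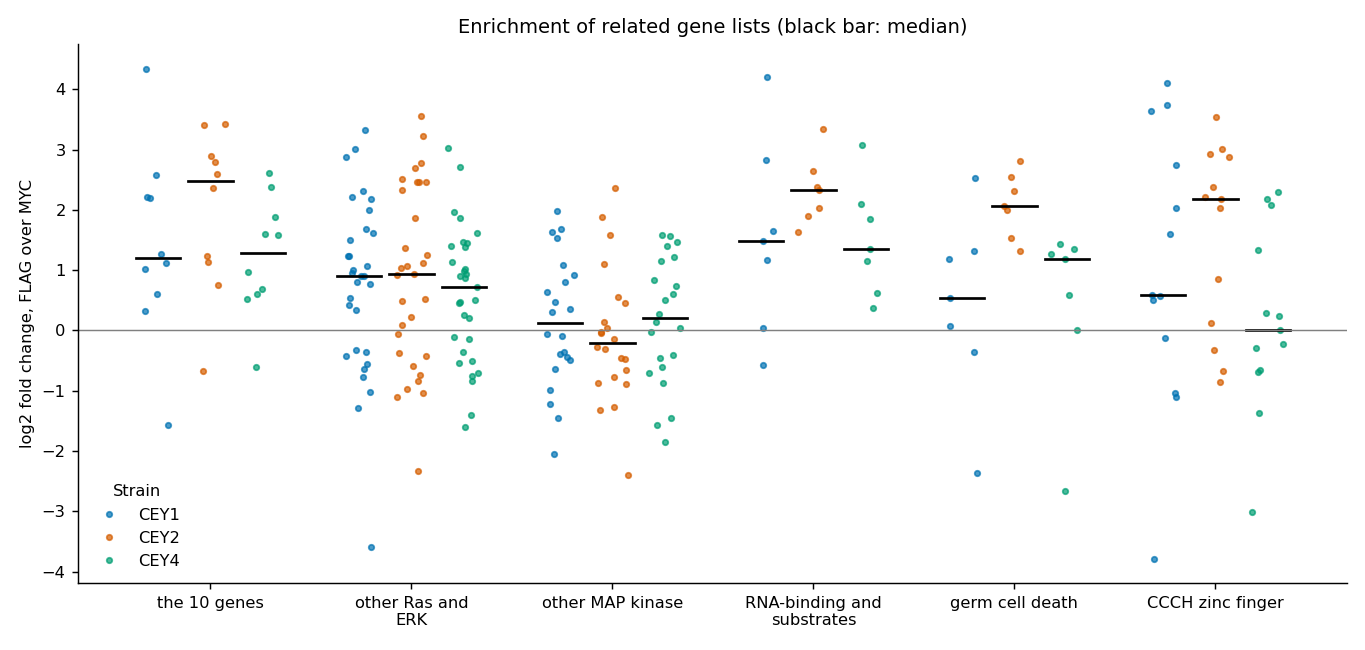
Log2 fold change of FLAG over MYC (y axis) of every tested gene in each related list, a point per gene and strain, with black bars at the medians. The medians of the 7 regulators and substrates (1.49, 2.33 and 1.34 in CEY1, CEY2 and CEY4) lie above those of the 22 genes of other MAP kinase cascades (0.12, −0.20 and 0.20), on TMM scaling; total-count scaling lowers all of them.

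Nearness of pattern was measured as the Euclidean distance over the 3 log2 enrichments among 6227 genes with a symbol and a mean of at least 10 CPM. Nearest to gla-3 were Y67H2A.10 (distance 0.35), Y48C3A.12 (0.37), sel-8 (0.39), nos-3 (0.48) and mdt-30 (0.53). nos-3 was also the most enriched gene of the regulator list in each strain. Nearest to mpk-1 were kbp-5 (0.083), vps-33.2 (0.093), rap-1 (0.14), F30A10.3 (0.16) and spn-4 (0.17), of which rap-1 encodes a Ras-like GTPase. Within the 10 genes, mpk-1 and lip-1 were nearest to each other, at 0.46, followed by lin-45 and ksr-2 at 0.65, while mek-2 and gla-3 were farthest apart, at 7.11.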

How the data were processed

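The deposited table holds raw counts per gene for 12 libraries and 20182 genes. Which aligner, genome build, counting program and strand setting the authors used is not given in the sources used here. Per the labels' protocols, Trizol freed the RNA from the beads and libraries were made with the ScriptSeq v2 kit. The authors' normalized table was not used. Symbols were found for 18778 identifiers (93.0%), and overlapping genes were taken from RefSeq (WBcel235) by name only.

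Analysis of the counts used edgeR 4.0.16 (limma 3.58.1) under R 4.3.3: filterByExpr by group with a minimum count of 10 left 15194 genes, TMM scaling was applied, and a quasi-likelihood model with 1 mean for each of 6 groups was fitted over all 12 libraries (common biological coefficient of variation 0.0476). Tests were two-sided, with Benjamini-Hochberg adjustment over all tested genes and calls at an adjusted p under 0.05. SE was derived from the F statistic. The code was tested on simulated data. Alternatives were total-count, RLE and upper-quartile scaling, no count filter, DESeq2 1.42.0, fits within a strain, a replicate block, and leaving out each library.

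The members and lists were chosen with earlier results of these data known. The text names all members, genes of each list from those with the lowest adjusted p (and others chosen after their values were seen: lin-3 in CEY2 and CEY4, let-23, let-92, lin-7, mak-2, sma-5, fbf-2, ced-9, egl-1 and pos-1), and the 5 genes nearest in pattern to gla-3 and mpk-1. In the shallowest library 1 CPM before TMM scaling is 3.35 counts. Reads carried no stated molecular identifiers, so depth speaks of counting error only. Replicate libraries differed by more than sampling noise (chi-square per degree of freedom 1.44 to 3.89). No sequence or coordinate is given.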

Additional observations from a re-analysis of the deposited data

Results flagged for a closer look

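A difference of enrichment between strains that passed the test marks a result for a closer look. The values below are log2 differences of FLAG over MYC enrichment, each called by edgeR's quasi-likelihood test, and none is weighed here.

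Between CEY1 and CEY2, the differences were −0.91 for let-60, −0.70 for lin-45, −2.71 for mek-2, −1.09 for mpk-1, −0.84 for ksr-2, −0.58 for sos-1 and −1.47 for lip-1, with 1.28 for gap-1. Between CEY1 and CEY4, the differences were 0.62 for lin-45, 0.66 for mpk-1 and 0.98 for ksr-2, with −0.97 for mek-2 and −0.85 for ksr-1. Between CEY2 and CEY4, they were 0.71 for let-60, 1.32 for lin-45, 1.74 for mek-2, 1.75 for mpk-1, 1.82 for ksr-2, 0.41 for sos-1, 1.62 for lip-1 and 0.79 for gla-3, with −1.12 for ksr-1 and −1.35 for gap-1. The sos-1 value of 0.41 changes sign with upper-quartile scaling, and its call is lost with total-count scaling, RLE scaling and DESeq2. Upper-quartile scaling also loses the calls of lin-45, ksr-2 and sos-1 between CEY1 and CEY2. Between CEY2 and CEY4 it loses those of let-60 and gla-3, and DESeq2 loses that of let-60. The ksr-1 value between CEY1 and CEY4 is −0.64 without the second CEY1 MYC library. Which values chose gla-3 is not recorded, so its 0.79 is no independent support.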

How the results depend on the processing

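Of 151 results, 97 were single-gene values, taken as kept when direction and call held. The rest were counts of called genes, taken as kept when equal or close in number, so single calls within a kept count may have changed. By this rule 96 were kept with total-count, 115 with upper-quartile, 139 with RLE scaling and 136 with DESeq2. All 151 were kept without the count filter and with the replicate block. Total-count scaling reversed the FLAG over MYC log2 fold change of let-60 (−1.17, −0.50 and −0.89 in CEY1, CEY2 and CEY4), mpk-1 (−0.22 and −0.81 in CEY1 and CEY4), ksr-1 (−0.47 and −0.97 in CEY1 and CEY2), gap-1 (−0.88 and −0.73 in CEY1 and CEY4), lip-1 (−0.37 and −0.44 in CEY1 and CEY4) and mek-2 (−0.59 in CEY2). Upper-quartile scaling reversed let-60 in CEY1 (−0.080), ksr-1 in CEY2 (−0.19) and the sos-1 difference of enrichment CEY2 minus CEY4 (−0.21). For sos-1 in MYC libraries, CEY1 against CEY2 became −0.13 (total-count), −0.090 (upper-quartile), −0.024 (RLE) and −0.024 (DESeq2), and CEY2 against CEY4 became 0.079 (total-count) and 0.033 (upper-quartile).

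The count of the 9 pathway genes higher with FLAG became 3, 5 and 4 in CEY1, CEY2 and CEY4 with total-count scaling, and the count lower 6, 4 and 5. For CEY1 minus CEY2, 2 were higher with RLE or upper-quartile scaling and 4 lower with upper-quartile scaling. The share of all tested genes higher was 24.5% with RLE and 28.8% with upper-quartile scaling, which made 21.5% lower. Between CEY1 and CEY2 MYC libraries, 2 were higher and 3 lower with total-count, 3 and 2 with RLE and with DESeq2, and 2 and 2 with upper-quartile scaling. Of all tested genes, 22.2% were higher and 27.2% lower there with total-count, and 26.3% and 23.9% with RLE scaling. The shares were 23.1% and 19.7% with DESeq2 and 23.6% and 26.0% with upper-quartile scaling. Between CEY2 and CEY4 MYC libraries, 3 were higher with each of the 4. Of all tested genes, 27.6% were higher there with total-count, 23.5% with RLE and 26.0% with upper-quartile scaling, and 19.5% with DESeq2. In FLAG libraries, upper-quartile scaling gave 2 higher for CEY1 against CEY2 and 3 lower for CEY2 against CEY4. The cause was not tested.

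Leaving out each library in turn, gap-1 ranged from −0.29 to 0.11 and lip-1 from −0.066 to 0.33 for CEY1 minus CEY4, changing sign. For FLAG over MYC in CEY1, let-60 ranged from 0.21 to 0.42 and gap-1 from 0.39 to 0.81. The count of the 9 higher with FLAG in CEY1 fell when some libraries were left out. The count of the 9 lower with FLAG in CEY2 ranged from 0 to 1, the count lower in CEY1 than in CEY4 MYC libraries from 0 to 1, and the count higher in CEY1 than in CEY2 FLAG libraries from 1 to 2. In DESeq2 the FLAG over MYC calls of gap-1 in CEY1 (adjusted p = 0.0808) and ksr-1 in CEY2 (adjusted p = 0.0673) were lost.

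Deviations of same-numbered FLAG and MYC libraries correlated at −0.06, −0.03 and −0.06 over 6405 genes in CEY1, CEY2 and CEY4. With 2 libraries a group, these values cannot tell whether same-numbered libraries came from the same worms. With the replicate block, 8 of the 9 pathway genes were higher with FLAG and 1 lower in each strain. Of all tested genes, 32.1% were then higher and 33.2% lower in CEY1, 34.8% and 33.3% in CEY2, and 31.4% and 35.7% in CEY4. Depth limits gap-1 most, at 24 to 103 counts a library, then ksr-1, at 45 to 468.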
